A study of Mus musculus with 12 samples.

Results

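The genes described here are 31 mouse genes of glucose and glycogen metabolism in the liver: glucose output (G6pc, Slc37a4, Pck1, Fbp1, Pcx), glucose entry and its regulation (Slc2a2, Gckr, Pfkl, Pfkfb1, Pfkfb3, Khk), the shared and lower steps of glycolysis (Gpi1, Tpi1, Gapdh, Pgk1, Pgam1, Eno1, Pklr, Ldha), glycogen (Ugp2, Gys2, Gbe1, Pygl, Phka2, Ppp1r3b, Ppp1r3c) and the response to insulin and other hormones (Insr, Irs2, Foxo1, Creb3l3, Tat). Members were the entries of the deposited gene table whose Ensembl mouse ID carries one of these symbols, and all 31 were found among 54532 gene IDs. Of them, 30 passed the filter on low values and were tested among 10806 genes; Gapdh did not pass. Expression was given as FPKM, fragments scaled to gene length and to library size. The length that fits the values is that of all annotated exons, which can exceed the longest transcript. For Eno1 these were 5379 and 2027 bases, and for G6pc both were 2414. Levels therefore compare only roughly between genes. The liver RNA came from wild-type mice of the inbred strain C57BL/6J in 4 groups of 3 libraries: a diet the labels call CD without further explanation, a high-fat diet (HFD), and each diet with 2% dextran sulfate sodium (DSS), named CD_DSS and HFD_DSS. DSS is a sulfated glucose polymer, given to rodents as a model of colon inflammation. Sex, age, diet composition and the route and length of DSS exposure were not given in the sources used here. Nor is it stated whether the libraries of a group are from different mice, so the p-values below measure the spread between libraries, which may be technical. Where 3 values follow each other for a group, they are libraries 1, 2 and 3 of that group.

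Between meals the liver keeps blood glucose up by breaking down glycogen and by making glucose from lactate, glycerol and amino acids, and after a meal it takes glucose up, stores it as glycogen and burns it through glycolysis. Both directions share most enzymes of the glycolytic chain and differ at a few one-way steps: Pck1 and Fbp1 serve the way to glucose, Pfkl and Pklr the way to pyruvate, and G6pc releases glucose from glucose 6-phosphate at the end of both glycogen breakdown and gluconeogenesis. Insulin represses G6pc and Pck1 through Foxo1 and related factors, while glucagon, acting through cAMP, and glucocorticoids raise them.

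RefSeq promoter windows of 300 bases (250 before the transcription start and 50 after it, GRCm38.p6, the mm10 build of the files) were matched by symbol for 28 of the 31 members, in 41 windows. No window was matched for Gys2, Insr and Ppp1r3b. Printed are the 250 bases before the RefSeq start for G6pc, the member with the greatest difference, for Pck1, the other hormone-controlled gene of glucose output, for Khk, which fell on HFD, and for Ldha, the one member that rose. All lie on the plus strand and run 5′ to 3′. The gene spans given further on come from GENCODE and cover all annotated transcripts. The stretches of G6pc, Pck1 and Khk therefore end inside their spans, and that of Ldha lies wholly within its span. Ldha had 2 windows, and the upstream one is printed. Capitals mark TATAAA and TGTTTTG in G6pc, TGACG read on the minus strand (as CGTCA) in Pck1 and Khk, CACGTG in Khk and Ldha, and TGACGTCA in Ldha. In Khk the CGTCA and CACGTG overlap.
G6pc (chr11:101367466-101367715): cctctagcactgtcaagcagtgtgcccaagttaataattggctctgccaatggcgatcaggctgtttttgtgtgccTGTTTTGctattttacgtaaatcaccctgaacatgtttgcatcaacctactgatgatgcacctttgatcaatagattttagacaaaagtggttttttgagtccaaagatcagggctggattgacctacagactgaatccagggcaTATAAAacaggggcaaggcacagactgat
Pck1 (chr2:173152823-173153072): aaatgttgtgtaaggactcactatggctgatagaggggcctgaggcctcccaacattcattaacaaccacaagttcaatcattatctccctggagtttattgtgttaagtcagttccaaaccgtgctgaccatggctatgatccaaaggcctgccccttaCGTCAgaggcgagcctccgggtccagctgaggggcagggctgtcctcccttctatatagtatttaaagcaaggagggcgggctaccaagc
Khk (chr5:30921309-30921558): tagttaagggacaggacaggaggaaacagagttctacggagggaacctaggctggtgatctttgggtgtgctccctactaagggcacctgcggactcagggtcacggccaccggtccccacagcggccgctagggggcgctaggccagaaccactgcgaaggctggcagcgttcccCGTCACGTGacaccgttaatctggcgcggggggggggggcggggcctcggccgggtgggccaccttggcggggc
Ldha (chr7:46845554-46845803): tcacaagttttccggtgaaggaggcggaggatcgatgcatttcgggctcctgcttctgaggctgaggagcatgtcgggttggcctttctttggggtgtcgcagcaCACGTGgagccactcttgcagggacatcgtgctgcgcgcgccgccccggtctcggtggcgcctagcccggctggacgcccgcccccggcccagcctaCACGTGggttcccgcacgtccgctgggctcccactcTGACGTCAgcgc

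The patterns named next were searched on both strands, and a match is a description of letters only. The sequence TATAAA, a core promoter element, occurred in 9.76% of the members' windows and in 13.6% of all 32851 windows. TGTTTTG, read in insulin-repressed promoters, began at position -174 from the RefSeq start of G6pc and was held by 9.76% of the members' windows (G6pc, Gckr, Irs2 and Creb3l3) and 6.28% of all. The cAMP response element TGACGTCA stood in 2.44% of the members' windows, only in Ldha, and in 1.79% of all. Its shorter form TGACG, which every TGACGTCA also holds, stood in 24.4% and 20.8%. The E-box CACGTG, bound by the carbohydrate-response factor family among others, was in 14.6% of the members' windows and 7.15% of all, and Ldha held it at -145 and -48. GTAAACA, a forkhead sequence, was in 0 of the members' windows and 3.65% of all, and AGAACA, part of the glucocorticoid response element, in 12.2% and 19.0%. A pattern not found says only that these letters are not in the window.

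The libraries held 23.4 to 29.4 M recovered fragments. On the first principal component of the tested genes (43.3% of the variance), untreated libraries lay on one side and DSS libraries on the other, except that HFD 1 and CD_DSS 1 lay close together between them and HFD_DSS 2 lay nearest to these on the DSS side. Saa1, an acute phase protein of hepatocytes, was at 579 FPKM in HFD 1 against 15.0 to 49.2 in the other 5 untreated libraries, at 9.14 in CD_DSS 1 against 483 and 595 in the others of its group, and at 191 in HFD_DSS 2 against 1104 and 2670.4. In Saa1, HFD 1 and CD_DSS 1 lay against their labels, and on the first component they lay between the groups. Their G6pc, Khk, Tat and Socs3 lay on the side of the labelled treatment (values below). These genes separate all untreated from all DSS libraries, so that side follows from their choice. On the second component (15.6% of the variance) HFD 1 was at -21.7 and the other HFD and HFD_DSS libraries at -11.6 to -2.82. CD_DSS 1 was at 20.3, CD_DSS 2 and 3 at 9.56 and 16.6, and CD at -3.94 to 11.3. Whether the labels of HFD 1 and CD_DSS 1 were exchanged was not tested. Results below are also given without these 3 libraries, an alternative chosen after seeing the data. The 3 were picked for departing from their labelled groups, so leaving them out narrows the groups by construction, and calls gained that way are no support for a difference. The libraries are of liver by their markers: the 7 hepatocyte markers summed to 40790 to 45350 FPKM in CD, 34440 to 39380 in HFD, 46990 to 50450 in CD_DSS and 25510 to 47310 in HFD_DSS, and no marker of any list was at 0 in all libraries.

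Over both diets DSS lowered more members than it raised. On CD, 2 members fell (G6pc and Tat) and 1 rose (Ldha), which is 10% of those tested, where 4.80% of all genes tested passed the same threshold (adjusted p under 0.05, limma), 2.01% higher and 2.79% lower. That split on CD was not stable: with no filter on low values, or without CD 2, CD 3 or CD_DSS 2, the 1 rise was the only call, and 1 rose and 1 fell with the 2 groups fitted alone or without CD 1 or CD_DSS 3. On HFD, 5 fell (G6pc, Khk, Pgam1, Eno1 and Pygl) and 0 rose, 16.7% against 4.83% of all genes, 1.73% higher and 3.10% lower, but 0 were called without HFD 2 or without HFD_DSS 1. Averaged over both diets, a comparison that uses the same libraries again, 12 members fell and Ldha rose, 43.3% against 20.0% of all genes, 8.72% higher and 11.2% lower. The median log2 difference of the 30 members was -0.21 on CD, -0.34 on HFD and -0.27 over both, where the median of all genes tested was -0.01 in each. Rescaling each library to TPM, so that all sum to the same total, turned the split of calls over all genes from 217 higher and 302 lower to 239 and 145 on CD, from 187 and 335 to 245 and 122 on HFD, and from 942 and 1215 to 1016 and 728 over both diets. Of the members, 1 was then higher and 2 were lower on each diet, and 1 was higher and 7 were lower over both. Differences are on the scale of log2(FPKM + 1). In bulk tissue, fewer cells of a type and less RNA per cell cannot be told apart.

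**Figure D1:**
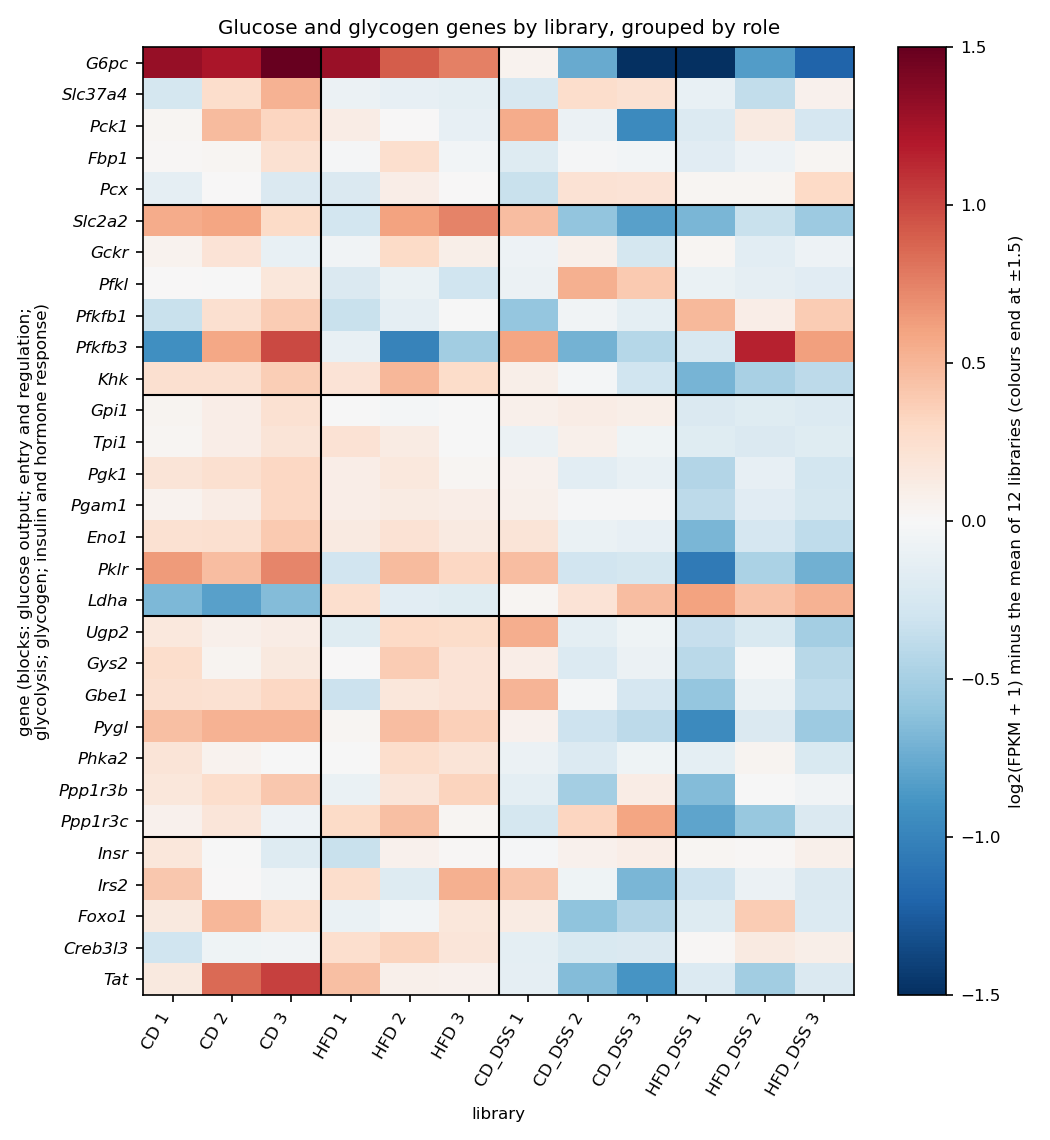
Each of the 30 tested members (vertical axis, in blocks by role) in each of the 12 libraries (horizontal axis), coloured by log2(FPKM + 1) minus the gene's mean over the libraries, with colours ending at 1.5 in both directions. G6pc is above its mean in all 6 untreated libraries, Ldha is below its mean in the 3 CD libraries and above it in the 3 HFD_DSS libraries, and Slc2a2, Pklr and Gbe1 are below their means in HFD 1 and above them in CD_DSS 1.

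G6pc (ENSMUSG00000078650, chromosome 11, 101367561 to 101377903, plus strand), the catalytic subunit of glucose 6-phosphatase, had the greatest DSS difference of all members on both diets. In FPKM, G6pc read 355, 334 and 403 in the CD libraries, 349.9, 269 and 242 in the HFD libraries, 147, 83.9 and 23.7 in the CD_DSS libraries, and 42.8, 79.6 and 61.5 in the HFD_DSS libraries. Every DSS library lay below every untreated library, and the DSS library nearest to them was CD_DSS 1. The group means were 364 ± 35.5 FPKM in CD, 287 ± 56.1 in HFD, 85.0 ± 61.8 in CD_DSS and 61.3 ± 18.4 in HFD_DSS (SD, n = 3). The difference was -2.42 on the log2 scale on CD (SE 0.50, 5.37-fold lower, limma adjusted p = 0.0249) and -2.23 on HFD (SE 0.50, 4.71-fold lower, adjusted p = 0.033). With 3 libraries a group the call on one diet was easily lost: on CD it ended without CD 1, CD 2, CD 3 or CD_DSS 2 (adjusted p 0.0644 to 0.0819), and on HFD without HFD 1, HFD 2, HFD 3, HFD_DSS 1 or HFD_DSS 3 (0.0574 to 0.129). It also ended with no filter on low values (0.0775 on CD and 0.0913 on HFD) and, on CD, with the 2 groups fitted alone (0.0811). Over both diets G6pc was called in all 21 alternatives, and without the 3 libraries that stood apart its log2 difference was -2.99 on CD and -2.29 on HFD.

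The other genes of glucose output did not pass the test. Pck1 (ENSMUSG00000027513, chromosome 2, 173153048 to 173159273, plus strand), which makes phosphoenolpyruvate from oxaloacetate, had the highest level of the 5 genes of glucose output. In FPKM, Pck1 read 808, 1099 and 990.1 in the CD libraries, 857, 799 and 729 in the HFD libraries, 1168, 747 and 409 in the CD_DSS libraries, and 687, 871 and 664 in the HFD_DSS libraries. The groups overlapped: CD_DSS held both the highest library of all, CD_DSS 1, and the lowest, CD_DSS 3. The log2 difference was -0.43 on CD (95% interval -1.09 to 0.22, limma adjusted p = 0.416) and -0.11 on HFD (-0.76 to 0.54, adjusted p = 0.862). Without the 3 libraries that stood apart, Pck1 was called on CD (-0.79, adjusted p = 0.0471) and not on HFD (-0.18, 0.668). The intervals over all libraries include 0 and decreases of Pck1, and on neither diet do they reach the estimate for G6pc. Fbp1, the bisphosphatase step, lay between 388 and 530.3 FPKM over all libraries with a log2 difference of -0.18 on CD and -0.14 on HFD. Slc37a4, which carries glucose 6-phosphate into the endoplasmic reticulum to G6pc, lay between 35.6 and 66.3 FPKM and differed by -0.08 and -0.02. Pcx, which makes oxaloacetate from pyruvate, lay between 97.4 and 152 FPKM and had positive differences of 0.14 and 0.15.

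**Figure D2:**
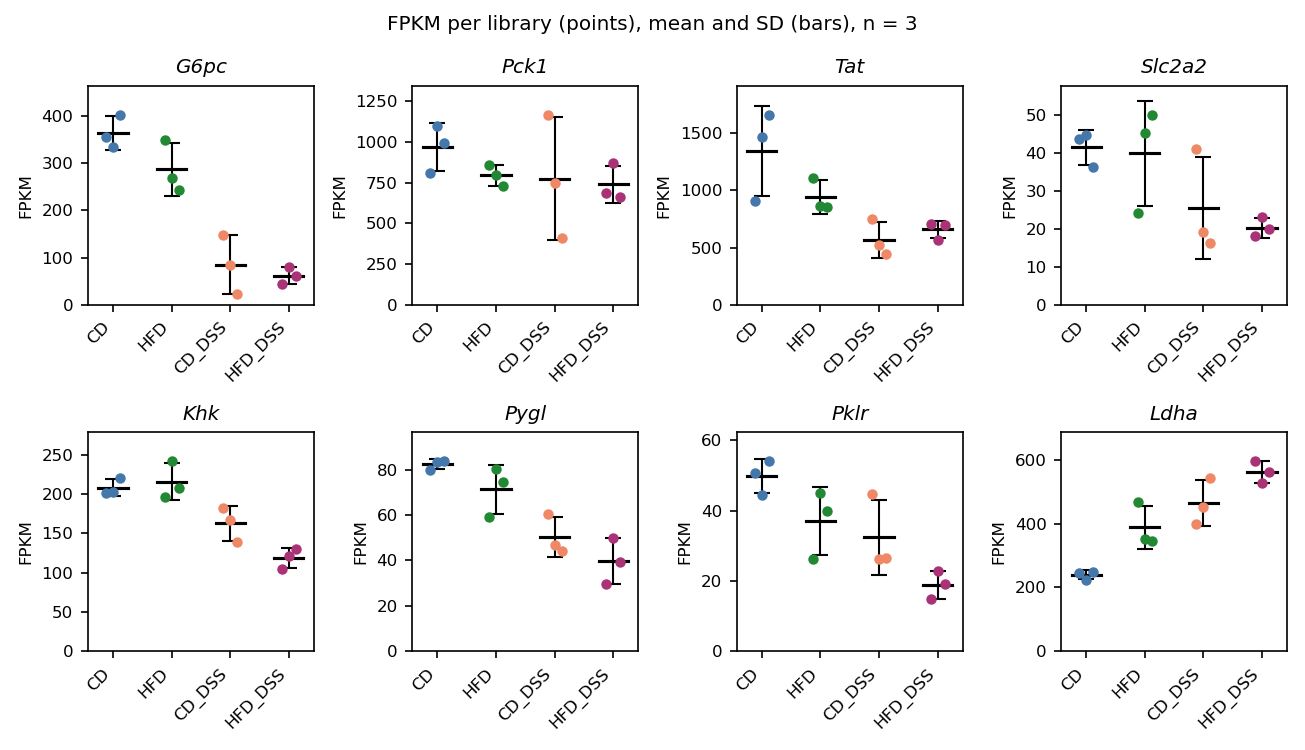
FPKM (vertical axes, from 0) of 8 members in the 4 groups (horizontal axes), with a point per library and bars for the mean and SD of n = 3. G6pc, Tat and Khk separate the untreated from the DSS libraries, Pck1 does not, and Ldha is lowest in CD.

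Of the 6 genes of glucose entry and its regulation, Slc2a2 and Khk fell over both diets, where 11.2% of all genes fell, and 4 were not called. Khk (ENSMUSG00000029162, chromosome 5, 30921431 to 30931248, plus strand) is ketohexokinase, which phosphorylates fructose. In FPKM, Khk read 201, 202 and 220.5 in the CD libraries, 197, 242 and 208 in the HFD libraries, 182, 167 and 138 in the CD_DSS libraries, and 105, 122 and 129 in the HFD_DSS libraries. All 6 DSS libraries lay below all 6 untreated ones, and the 3 HFD_DSS libraries were the lowest. The means were 208 ± 10.9 FPKM in CD, 215 ± 23.6 in HFD, 162 ± 22.2 in CD_DSS and 119 ± 12.7 in HFD_DSS. On HFD Khk fell by 0.86 on the log2 scale (SE 0.13, 1.81-fold, limma adjusted p = 0.011), a call lost without HFD 2 (0.0627) or HFD_DSS 1 (0.0564). On CD the difference was -0.36 (adjusted p = 0.122), and the difference between the diets' DSS effects, -0.49, was not called. Over both diets it was -0.61 (adjusted p = 0.00231), called in all 21 alternatives.

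Slc2a2 (GLUT2, ENSMUSG00000027690, chromosome 3, 28697903 to 28731359, plus strand) is the main glucose carrier of the hepatocyte membrane. In FPKM, Slc2a2 read 43.7, 44.8 and 36.2 in the CD libraries, 24.2, 45.4 and 50.2 in the HFD libraries, 41.0, 19.3 and 16.3 in the CD_DSS libraries, and 18.0, 23.1 and 19.8 in the HFD_DSS libraries. Of the DSS libraries 4 lay at 16.3 to 19.8 and HFD_DSS 2 at 23.1, while HFD 1 at 24.2 lay below the other untreated libraries and CD_DSS 1 at 41.0 lay among them. Over both diets Slc2a2 fell by 0.84 on the log2 scale (SE 0.23, limma adjusted p = 0.0257), but it was not called on either diet alone (0.169 and 0.126). The call over both diets was lost without any one of CD 2, HFD 2, HFD 3, CD_DSS 2, CD_DSS 3, HFD_DSS 1 or HFD_DSS 3 (adjusted p 0.0552 to 0.0644) and with no filter (0.074). Without the 3 libraries that stood apart, which include HFD 1 and CD_DSS 1, the log2 difference was -1.18 on CD and -1.29 on HFD.

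**Figure D3:**
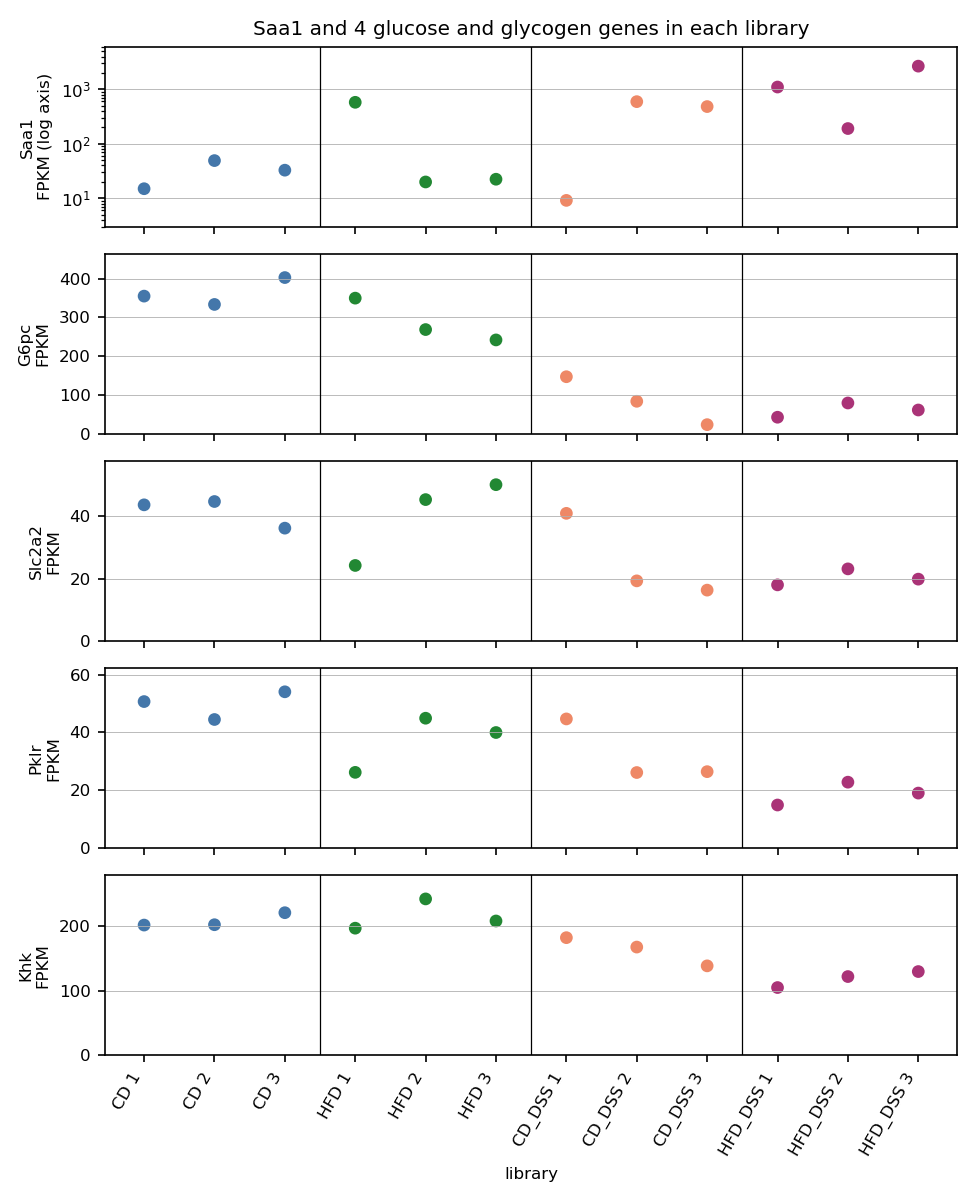
FPKM of Saa1 (top, log axis) and of G6pc, Slc2a2, Pklr and Khk (linear axes from 0) in each library, with group by colour. In HFD 1, where Saa1 is at 579 FPKM, Slc2a2 and Pklr are lower than in the other untreated libraries, and in CD_DSS 1, where Saa1 is at 9.14, they are at untreated levels, while G6pc and Khk in both libraries lie on the side of their labelled treatment.

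Gckr ranged only from 18.8 to 28.0 FPKM. In FPKM, Gckr read 23.7, 26.3 and 21.1 in the CD libraries, 21.9, 28.0 and 24.3 in the HFD libraries, 21.6, 24.1 and 18.8 in the CD_DSS libraries, and 23.1, 20.2 and 21.5 in the HFD_DSS libraries. The groups overlapped on both diets, with a log2 difference of -0.14 on CD (95% interval -0.40 to 0.13, limma adjusted p = 0.542) and -0.18 on HFD (-0.45 to 0.08, 0.391). Pfkl, the liver phosphofructokinase, lay between 5.79 and 11.0 FPKM with its highest values in CD_DSS 2 and CD_DSS 3. Pfkfb1 and Pfkfb3 encode the bifunctional enzymes that set fructose 2,6-bisphosphate, the activator of that step. Pfkfb1 differed by -0.36 on CD and 0.48 on HFD, where all HFD_DSS libraries (8.93 to 12.0 FPKM) lay above all HFD libraries (6.35 to 8.19), and neither was called (limma adjusted p = 0.302 and 0.164). Pfkfb3 ran from 1.31 to 7.71 FPKM within CD alone, and its interval on HFD ran from -0.07 to 2.17.

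Over both diets, where 11.2% of all genes fell, 5 of 7 tested members of the shared and lower steps of glycolysis fell. These were Tpi1, Pgk1, Pgam1, Eno1 and Pklr, while Ldha rose and Gpi1 was not called. The decreases were smaller than that of G6pc, from 1.17-fold (Tpi1) to 1.72-fold (Pklr). Eno1 (ENSMUSG00000063524, chromosome 4, 150236721 to 150248879, plus strand) is enolase, the step before pyruvate kinase. In FPKM, Eno1 read 81.5, 82.0 and 91.6 in the CD libraries, 76.1, 80.6 and 75.9 in the HFD libraries, 79.3, 64.8 and 63.6 in the CD_DSS libraries, and 42.6, 58.0 and 52.8 in the HFD_DSS libraries. The 3 HFD_DSS libraries were the lowest of the 12, and CD_DSS 1 was close to the CD libraries. Eno1 fell by 0.60 on the log2 scale on HFD (SE 0.12, limma adjusted p = 0.0271) and by 0.45 over both diets (SE 0.09, 0.00662), and on CD the difference was -0.30 (0.18). The call on HFD ended without HFD 2, HFD 3, HFD_DSS 1 or HFD_DSS 3 (0.0704 to 0.123) and with TPM in place of FPKM (0.0776), no filter (0.0638) or the 2 groups alone (0.0713), and that over both diets held in all 21 alternatives.

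Pgam1, phosphoglycerate mutase (ENSMUSG00000011752, chromosome 19, 41911923 to 41918660, plus strand), had the smallest difference called on HFD. In FPKM, Pgam1 read 71.1, 73.9 and 85.3 in the CD libraries, 73.3, 74.8 and 73.8 in the HFD libraries, 72.2, 67.5 and 67.4 in the CD_DSS libraries, and 52.0, 60.8 and 57.0 in the HFD_DSS libraries. HFD_DSS lay below all other libraries, and CD_DSS overlapped CD. Pgam1 fell by 0.38 on the log2 scale on HFD (SE 0.09, 1.30-fold, limma adjusted p = 0.0423) and by 0.27 over both diets (0.0179). Its call on HFD ended without HFD 1, HFD 2, HFD 3, HFD_DSS 1 or HFD_DSS 3 (0.0543 to 0.163) and with no filter (0.0685), the 2 groups alone (0.0952) or TPM (0.133), and TPM also ended the call over both diets (0.0837).

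Pgk1, phosphoglycerate kinase, makes the first ATP of the lower chain. In FPKM, Pgk1 read 169.9, 175 and 184 in the CD libraries, 159, 165 and 151 in the HFD libraries, 155, 133 and 137 in the CD_DSS libraries, and 108, 136 and 122 in the HFD_DSS libraries. All CD_DSS libraries lay below all CD libraries and all HFD_DSS below all HFD, and HFD overlapped neither with CD nor with HFD_DSS. Pgk1 fell by 0.35 on the log2 scale over both diets (SE 0.07, limma adjusted p = 0.00932), with -0.32 on CD (0.104) and -0.38 on HFD (0.061), and TPM ended the call over both diets (0.0506). Tpi1, triose phosphate isomerase, showed the smallest called decrease of the chain. In FPKM, Tpi1 read 129, 136 and 146 in the CD libraries, 147, 139 and 127 in the HFD libraries, 119, 133 and 122 in the CD_DSS libraries, and 112, 109 and 112 in the HFD_DSS libraries. HFD_DSS lay below all other libraries, and CD_DSS overlapped CD. Over both diets Tpi1 fell by 0.22 on the log2 scale (SE 0.06, limma adjusted p = 0.0344), a call kept in 10 of 21 alternatives and lost without CD 2, CD 3, HFD 1, HFD 2, CD_DSS 3 or any one of the HFD_DSS libraries (0.0533 to 0.0775), or with TPM (0.0601). Gpi1, the isomerase at the head of the chain, lay between 16.4 and 22.5 FPKM, with 16.4 to 16.8 in HFD_DSS and 18.7 to 22.5 elsewhere (log2 difference on HFD -0.19, limma adjusted p = 0.137).

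Pklr (ENSMUSG00000041237, chromosome 3, 89136142 to 89146784, plus strand) is the liver pyruvate kinase, a gene raised by carbohydrate feeding. In FPKM, Pklr read 50.7, 44.5 and 54.1 in the CD libraries, 26.2, 44.9 and 40.0 in the HFD libraries, 44.7, 26.1 and 26.4 in the CD_DSS libraries, and 14.9, 22.8 and 19.0 in the HFD_DSS libraries. As for Slc2a2, HFD 1 at 26.2 was close to CD_DSS 2 and CD_DSS 3, and CD_DSS 1 at 44.7 lay within the CD and HFD values. Pklr fell by 0.78 on the log2 scale over both diets (SE 0.17, 1.72-fold, limma adjusted p = 0.0101), called in all 21 alternatives. On single diets it was -0.64 on CD (0.137) and -0.92 on HFD (0.0514). Without the 3 libraries that stood apart it was -0.89 on CD and -1.28 on HFD.

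Ldha (ENSMUSG00000063229, chromosome 7, 46841475 to 46855627, plus strand), a subunit of lactate dehydrogenase, which interconverts pyruvate and lactate, moved against the rest of the chain. In FPKM, Ldha read 245, 224 and 249 in the CD libraries, 467, 351 and 345 in the HFD libraries, 399, 452 and 542 in the CD_DSS libraries, and 596, 529 and 563 in the HFD_DSS libraries. The 3 CD libraries, at 224 to 249, were the lowest of the 12, and the 3 HFD libraries, at 345 to 467, overlapped CD_DSS but not CD. The means were 239 ± 13.8 FPKM in CD, 388 ± 68.8 in HFD, 464 ± 72.1 in CD_DSS and 562 ± 33.9 in HFD_DSS. DSS on CD raised Ldha by 0.94 on the log2 scale (SE 0.15, 1.92-fold, limma adjusted p = 0.0087), a call kept in all 16 alternatives (0.000475 to 0.0462). On HFD the difference was 0.55 (SE 0.15, adjusted p = 0.0539), just outside the threshold, and 0.73 without the 3 libraries that stood apart. Over both diets it was 0.75 (0.0017), called in all 21 alternatives.

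Gapdh (ENSMUSG00000057666), the step between Tpi1 and Pgk1 and one of the most abundant messages of most cells, was listed at only 0.319 to 1.34 FPKM, which is 32 to 136 recovered fragments a library, and was not tested. Its longest transcript matched 144 other annotated genes at 95% identity or more over at least 100 bases, and of these Gm7336 was listed at a mean of 16.6 FPKM and Gm3839 at 7.62. The labels do not say how reads that match several genes were counted, and their part in the low listed value was not tested. Such matches covered 36.1% of the longest transcript of Gapdh and 85.6% of that of Eno1 (3 genes, the highest Eno1b at 4.15 FPKM). They covered 68.8% for Pgk1, 55.0% for Ldha, 43.1% for Pgam1, 27.3% for Gpi1 and 19.3% for Tpi1, so these values carry that uncertainty. The highest listed mean of a matching gene was 1.01 FPKM for Pgk1, 0.11 for Ldha, 2.41 for Pgam1, 0.12 for Gpi1 and 5.66 for Tpi1. The members' own means were 149.6, 413.5, 69.1, 19.2 and 127.6 FPKM. For Pklr the match covered 24.5% and was Hcn3 alone, the gene that overlaps it on the opposite strand. For G6pc, Pck1, Khk, Slc2a2, Pygl, Gys2 and Tat there were 0 such matches. For Foxo1 they covered 8.34%, with 6.81% matched by Gm20402, the gene on its opposite strand. Of the annotated exon bases, 22.0% of Pklr (with Hcn3), 11.5% of Gpi1 and 7.78% of Foxo1 (with Gm20402) are shared with an opposite-strand gene. Without stranded counting such fragments cannot be told apart.

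Over both diets, where 11.2% of all genes fell, all 7 glycogen members had a negative difference and 3 were called: Pygl, Gys2 and Phka2. Pygl (ENSMUSG00000021069, chromosome 12, 70190811 to 70231488, minus strand) is the liver glycogen phosphorylase, which releases glucose units from glycogen. In FPKM, Pygl read 79.8, 83.5 and 83.8 in the CD libraries, 59.4, 80.2 and 74.4 in the HFD libraries, 60.5, 46.7 and 44.0 in the CD_DSS libraries, and 29.5, 49.8 and 39.5 in the HFD_DSS libraries. The DSS libraries (29.5 to 60.5) overlapped the untreated ones (59.4 to 83.8) by a single pair, HFD 1 and CD_DSS 1. The means were 82.4 ± 2.25 FPKM in CD, 71.3 ± 10.7 in HFD, 50.4 ± 8.88 in CD_DSS and 39.6 ± 10.1 in HFD_DSS. Pygl fell by 0.85 on the log2 scale on HFD (SE 0.18, 1.81-fold, limma adjusted p = 0.0301) and by 0.78 over both diets (0.00344, called in all 21 alternatives). On CD it was -0.71, at the threshold (adjusted p = 0.0502). The call on HFD ended without HFD 2, HFD 3, HFD_DSS 1 or HFD_DSS 3 (0.0828 to 0.139) and with TPM (0.0696), no filter (0.0771) or the 2 groups alone (0.083). Without the 3 libraries that stood apart the log2 differences were -0.85 on CD and -1.16 on HFD.

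Gys2, the liver glycogen synthase, works in the opposite direction to Pygl and also fell over both diets. In FPKM, Gys2 read 43.9, 37.5 and 40.6 in the CD libraries, 36.6, 48.0 and 42.1 in the HFD libraries, 39.3, 31.7 and 34.3 in the CD_DSS libraries, and 27.4, 35.7 and 27.1 in the HFD_DSS libraries. The groups overlapped on CD and not on HFD. The decrease over both diets was 1.27-fold (log2 -0.34, SE 0.10, limma adjusted p = 0.0282). It was called in 10 of 21 alternatives and lost without CD 1, CD 3, HFD 2, HFD 3, CD_DSS 2, CD_DSS 3, HFD_DSS 1 or HFD_DSS 3 (0.053 to 0.0718), or with no filter (0.0621) or TPM (0.111). Phka2, a regulatory subunit of the phosphorylase kinase that activates Pygl, was low in all libraries. In FPKM, Phka2 read 4.13, 3.64 and 3.45 in the CD libraries, 3.44, 4.35 and 4.11 in the HFD libraries, 3.21, 2.86 and 3.29 in the CD_DSS libraries, and 3.04, 3.60 and 2.81 in the HFD_DSS libraries. Over both diets it fell by 0.23 on the log2 scale (SE 0.07, limma adjusted p = 0.0414), called in 8 of 20 alternatives and lost without CD 1, CD 2, HFD 2, HFD 3, CD_DSS 2, CD_DSS 3, HFD_DSS 1 or HFD_DSS 3 (0.0623 to 0.101), or with no filter (0.0914), TPM (0.151) or median-of-ratios scaling (0.0517).

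The other 4 glycogen members were not called in any comparison. Ugp2, which makes UDP-glucose, lay between 48.6 and 101 FPKM, with its highest value in CD_DSS 1 and all 3 HFD_DSS libraries below all HFD libraries (log2 difference on HFD -0.49, limma adjusted p = 0.127). Gbe1, the branching enzyme, lay between 10.9 and 24.3 FPKM, with 13.3 in HFD 1 and 24.3 in CD_DSS 1. Ppp1r3b and Ppp1r3c are glycogen-targeting subunits of protein phosphatase 1, which favours synthesis. Ppp1r3b, at 28.6 to 60.3 FPKM, differed by -0.45 on CD and -0.38 on HFD, and over both diets by -0.42 (adjusted p = 0.0561). Ppp1r3c differed by 0.16 on CD and -0.78 on HFD (adjusted p = 0.69 and 0.0545), and its HFD_DSS libraries (17.8 to 26.9 FPKM) lay below all HFD libraries (32.3 to 43.5).

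Among the 5 hormone-response members, Tat was the one called, where 20.0% of all genes were called over both diets. Tat (ENSMUSG00000001670, chromosome 8, 109990437 to 109999803, plus strand), tyrosine aminotransferase, is a glucocorticoid- and glucagon-induced gene of amino acid breakdown. In FPKM, Tat read 904, 1470.4 and 1663 in the CD libraries, 1111, 862 and 851 in the HFD libraries, 745, 519.9 and 441 in the CD_DSS libraries, and 705, 569 and 699 in the HFD_DSS libraries. All DSS libraries, at 441 to 745, lay below all untreated ones, at 851 to 1663. The means were 1346 ± 395 FPKM in CD, 941 ± 147 in HFD, 569 ± 158 in CD_DSS and 658 ± 76.5 in HFD_DSS. Tat fell by 1.23 on the log2 scale on CD (SE 0.24, 2.34-fold, limma adjusted p = 0.0225), a call lost without CD 2, CD 3, CD_DSS 2 or CD_DSS 3 (0.0806 to 0.103), with no filter (0.0732) or with the 2 groups alone (0.0741), and over both diets by 0.87 (0.00708, called in all 21 alternatives). On HFD the difference was -0.51 (0.232), and the difference of the DSS effects, 0.72 (95% interval -0.04 to 1.48), was not called.

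Insr, the insulin receptor, was not called in any comparison. In FPKM, Insr read 13.4, 11.7 and 10.2 in the CD libraries, 9.15, 12.4 and 11.9 in the HFD libraries, 11.6, 12.4 and 12.7 in the CD_DSS libraries, and 12.0, 11.9 and 12.4 in the HFD_DSS libraries. Its groups overlapped, with a log2 difference of 0.06 on CD (95% interval -0.19 to 0.31, limma adjusted p = 0.805) and 0.12 on HFD (-0.13 to 0.38, 0.565). The sign turned when CD 3 (-0.0294 on CD) or HFD 1 (-0.0029 on HFD) was left out. Irs2, the receptor's main docking protein in liver, lay between 4.84 and 12.6 FPKM and differed by -0.23 and -0.40. Foxo1, the insulin-restrained activator of G6pc and Pck1, lay between 3.47 and 8.60 FPKM and differed by -0.61 on CD (limma adjusted p = 0.103) and -0.02 on HFD (0.973). Creb3l3, a hepatocyte transcription factor of the fasting and lipid response, lay between 90.1 and 140.3 FPKM and differed by -0.06 and -0.18.

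**Figure D4:**
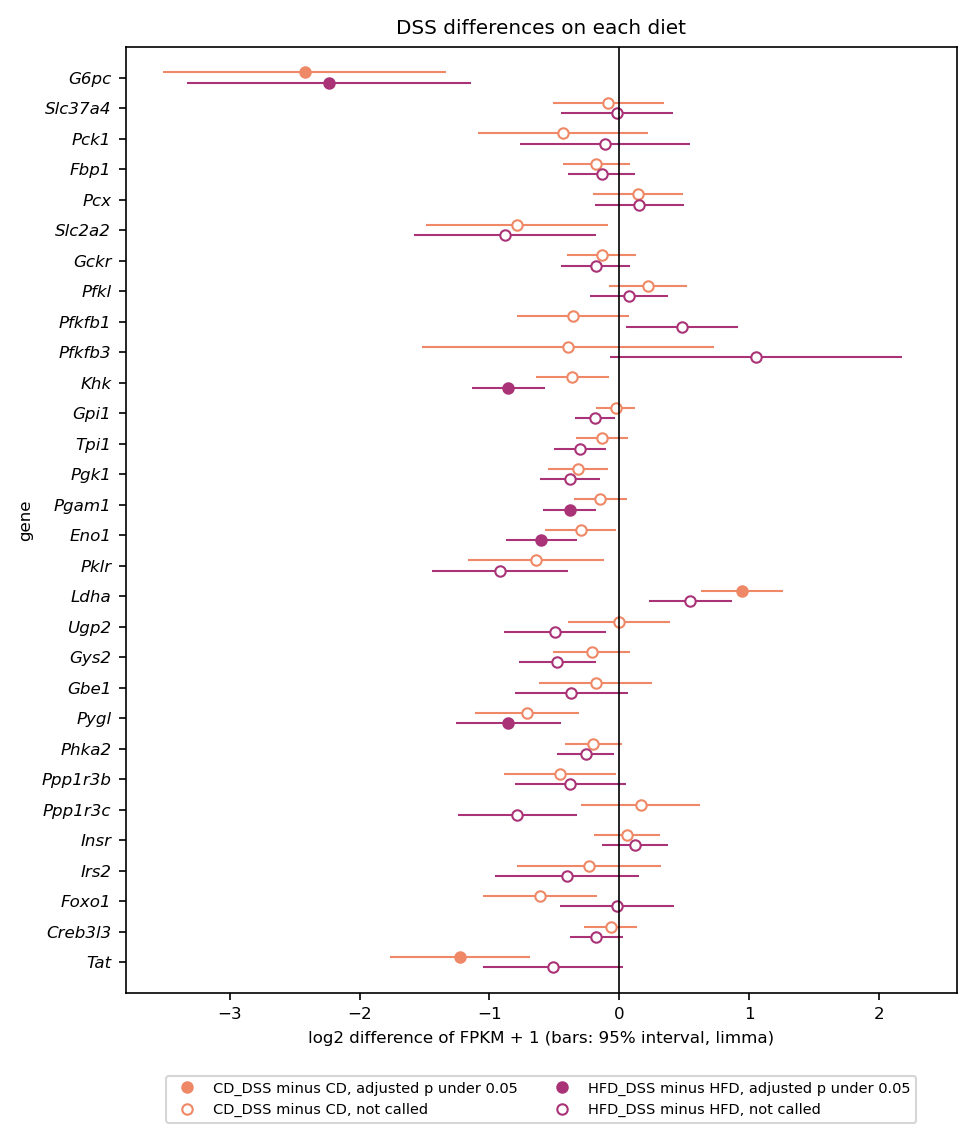
Log2 difference of FPKM + 1 between DSS and untreated libraries (horizontal axis) for the 30 tested members (vertical axis), on CD (orange) and on HFD (purple), with 95% intervals from limma and filled points where the adjusted p is under 0.05. G6pc stands at -2.42 and -2.23 and Ldha at 0.94 and 0.55, while most other members lie between -1 and 0.

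Read by ranges, 11 members did not overlap between CD and CD_DSS (Ldha higher and 10 lower), against 27.0% of all genes, and 17 did not overlap between HFD and HFD_DSS (Ldha and Pfkfb1 higher and 15 lower), against 27.1%. With the 6 untreated libraries set against the 6 DSS libraries, 3 members did not overlap, all lower (G6pc, Khk and Tat), against 6.59% of all genes, 3.85% on the lower side. By library, the median of the 30 members relative to their means over the libraries was between 0.15 and 0.28 in CD, between -0.01 and 0.16 in HFD, at 0.05 in CD_DSS 1, -0.07 and -0.12 in CD_DSS 2 and 3, and between -0.12 and -0.23 in HFD_DSS (log2). The glycogen members were lowest in HFD_DSS 1, at a median of -0.58, and HFD_DSS 1 was also the lowest library for the glycolysis members, at -0.39.

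Diet alone called 0 of the 30 members, without DSS and with DSS, by limma and by voom on the recovered fragments, where 0.00925% and 0.102% of all genes were called by limma. At an unadjusted p under 0.05 there were 2 of 30 members without DSS, against 6.72% of all genes, and 10 of 30 with DSS, against 10.8%. Without DSS, Ldha and Creb3l3 were the members whose HFD libraries all lay above the CD libraries. Ldha was 1.60-fold higher in HFD than in CD (log2 0.68, SE 0.15, adjusted p = 0.211), and weighting libraries by their estimated variance brought it past the threshold (0.028). Creb3l3 was at 101 ± 9.43 FPKM in CD and 133 ± 7.23 in HFD (log2 0.39, SE 0.09, adjusted p = 0.28), and at 96.2 ± 3.01 and 117 ± 4.97 with DSS (log2 0.28, 0.298). In both settings the ranges did not overlap, and neither difference was called. In all, 7 members did not overlap between CD and HFD, against 13.1% of all genes, and 10 between CD_DSS and HFD_DSS, against 16.5%. The latter were Creb3l3 and Pfkfb1 on the higher side and Eno1, Gpi1, Khk, Pfkl, Pgam1, Pklr, Tpi1 and Ugp2 on the lower. Of these 8, all but Khk and Ugp2 are enzymes of the glycolytic chain. Pfkl was called there without CD_DSS 1 (adjusted p = 0.049) and without the 3 libraries that stood apart (log2 -0.59, adjusted p = 0.0483, where 0.763% of all genes were called).

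A difference of the DSS effects between diets was tested directly, and 0 of 30 members were called by limma or voom, against 0.00925% of all genes by limma. At an unadjusted p under 0.05 there were 3 of 30, against 4.93% of all genes. The lowest adjusted p of a member was that of Ppp1r3c, 0.86 (log2 -0.95, 95% interval -1.60 to -0.30), followed by Pfkfb1 at 0.958 (log2 0.84, 0.23 to 1.44). For G6pc the difference between the diets' DSS effects was 0.19 with a 95% interval from -1.35 to 1.73, so a moderate difference in either direction could not be detected with these libraries. Calls on one diet only, such as Tat on CD or Khk, Pgam1 and Eno1 on HFD, are therefore not shown to be particular to that diet.

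Without HFD 1, CD_DSS 1 and HFD_DSS 2, more members were called on each diet, as were more genes overall. On CD, 13 members were called, against 18.3% of all genes tested: Ldha and Pfkl higher, and Tat, Pck1, G6pc, Khk, Pgk1, Eno1, Pygl, Pklr, Slc2a2, Gbe1 and Foxo1 lower. On HFD, 14 were called, against 19.1%: Ldha higher, and G6pc, Khk, Pgk1, Ugp2, Eno1, Pgam1, Pygl, Gys2, Pklr, Ppp1r3c, Slc2a2, Gbe1 and Phka2 lower. The 3 members called on CD and the 5 called on HFD with all libraries were among them. Over both diets 17 were called, against 31.7%, and Tpi1 was the one earlier call that was lost (adjusted p = 0.0792). These counts describe the remaining 9 libraries only.

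Genes around the members were counted in 8 lists. Of 157 genes listed, 156 were matched (Gyg1 was not) and 133 tested, of which 3 rose and 6 fell with DSS on CD (6.77%), 2 rose and 3 fell on HFD (3.76%) and 12 rose and 25 fell over both diets (27.8%), beside the 4.80%, 4.83% and 20.0% of all genes given above. Of 15 other gluconeogenesis genes tested, 8 fell, 0 rose and 7 were not called over both diets (median log2 difference -0.26), while 3 fell on CD and 1 on HFD. Mdh1, a malate dehydrogenase, and Slc25a11, a mitochondrial malate carrier, fell by 0.43 and 0.35 on the log2 scale (limma adjusted p = 0.0031 and 0.00685). The aminotransferases Gpt and Got1 fell by 0.55 and 0.64 (limma adjusted p = 0.0066 and 0.0146). In FPKM, Got1 read 114, 90.2 and 111 in the CD libraries, 68.5, 68.4 and 63.7 in the HFD libraries, 50.7, 55.6 and 54.1 in the CD_DSS libraries, and 34.2, 70.9 and 62.6 in the HFD_DSS libraries. CD lay above all other groups for Got1, which fell on CD by 0.96 (0.0336) and differed by -0.32 on HFD (0.393). In pyruvate oxidation 2 of 11 fell, Pdk1 and Pdk2, the kinases that switch off pyruvate dehydrogenase (log2 -0.44 and -0.42).

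The next counts are over both diets, where 8.72% of all genes rose and 11.2% fell. Among 16 other glycolysis genes tested, 3 rose and 1 fell, with a median of 0.05. The muscle-type phosphofructokinase Pfkm fell by 0.35 on the log2 scale, and the lactate carrier Slc16a1 rose by 0.42 (limma adjusted p = 0.0154), beside Ldha; Pfkfb2 rose by 0.32 and Hk3 by 0.39. Of 19 other glycogen genes, Pgm2 and Phkg2 rose (0.47 and 0.30) and Epm2a, laforin, and Phkb fell (-0.43 and -0.26). Of 12 genes of fructose and carbohydrate response, Mlxip rose by 0.27 and 3 fell: the fructose carrier Slc2a5 (-0.46), Slc2a9 (-0.30) and Sord (-0.45), which makes fructose from sorbitol. Of 7 pentose phosphate genes, H6pd rose by 0.33 and Pgd, Tkt and Taldo1 fell (-0.29, -0.34 and -0.21).

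**Figure D5:**
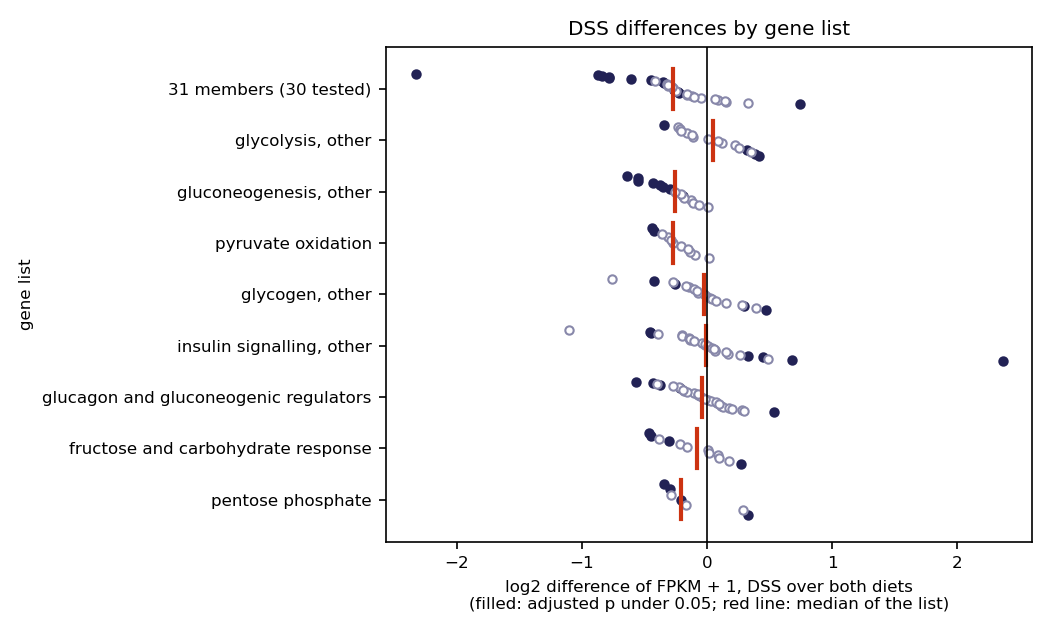
Log2 difference of FPKM + 1 for DSS over both diets (horizontal axis) of each tested gene in the member set and in 8 further lists (vertical axis), filled where the limma adjusted p is under 0.05, with the median of each list as a red line. The medians of the members, of other gluconeogenesis genes and of pyruvate oxidation lie near -0.27, and those of other glycolysis, glycogen and insulin signalling genes near 0.

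Of 26 other insulin signalling genes tested, 4 rose and 2 fell over both diets, with a median of 0.00, where 20.0% of all genes were called. Socs3, a cytokine-induced inhibitor that also binds the insulin receptor and Irs proteins, had the largest difference of the list. In FPKM, Socs3 read 1.40, 1.22 and 0.939 in the CD libraries, 4.02, 1.04 and 2.23 in the HFD libraries, 7.67, 11.0 and 10.9 in the CD_DSS libraries, and 14.7, 10.7 and 26.7 in the HFD_DSS libraries. All 6 DSS libraries, at 7.67 to 26.7, lay above all untreated ones, CD_DSS 1 included. Socs3 rose by 2.31 on the log2 scale on CD (SE 0.33, limma adjusted p = 0.00772) and 2.42 on HFD (SE 0.33, 0.00978). Irs1, at only 1.12 to 2.78 FPKM over all libraries, fell by 0.45, and the phosphatase gene Ptpn1 and Akt1 rose by 0.68 and 0.44. Of 28 glucagon and gluconeogenic regulators, 1 rose and 4 fell, with a median of -0.04, against the same 20.0% of all genes. Hnf4a, a hepatocyte factor that binds gluconeogenic promoters, rose on CD (0.48, adjusted p = 0.0385) and on HFD (0.59, 0.0228), while Prkaca, the catalytic subunit of the cAMP-dependent kinase, fell over both diets by 0.21, Prkaa2 by 0.38 and Sik1 by 0.57.

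A further 5 genes of the pathway are given whatever their test. Ppargc1a, a coactivator of gluconeogenic genes, was low (0.591 to 1.87 FPKM) and differed by -0.26 on CD, and by -0.49 between HFD and CD (adjusted p = 0.448). Igfbp1, a secreted protein whose gene insulin represses as it does G6pc, was at 276 to 382 FPKM in CD, 128 to 379 in HFD, 42.5 to 289 in CD_DSS and 113 to 167 in HFD_DSS. Its difference was -1.66 on CD (SE 0.57, limma adjusted p = 0.114) and -0.54 on HFD (0.605). Pdk4, a fasting-induced kinase of pyruvate dehydrogenase, was at 16.4 FPKM in CD_DSS 1 and 1.72 to 5.82 in the other 11 libraries. Mlxipl, the carbohydrate-response factor of Pklr, differed by -0.45 and -0.31, and the glucagon receptor gene Gcgr by 0.02 and -0.01, and neither was called.

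Other genes moved with DSS beside the members, in counts over both diets, where 8.72% of all genes rose and 11.2% fell. Summed levels are over all listed genes, tested or not. Over both diets, 11 of 15 acute phase genes tested rose and 0 fell (median log2 difference 1.44). The 16 listed summed to 9470 to 11500 FPKM in CD, 9213 to 22000 in HFD, 12640 to 38270 in CD_DSS and 21790 to 51690 in HFD_DSS. Of the glucocorticoid and fasting response genes, 2 of 11 rose (Zbtb16 and Fkbp5, 1.88 and 1.43) and 1 fell (Tsc22d3, -1.06), with summed levels of 769 to 856, 905 to 1068, 801 to 1010 and 889 to 1057 FPKM in the same order. Of 12 macrophage and Kupffer markers tested 6 rose (the 13 listed summed to 304 to 375, 297 to 479, 339.9 to 623 and 403 to 590.0 FPKM). Of 4 neutrophil markers tested 0 were called by limma. The 8 listed summed to 1.83 to 3.42, 2.01 to 24.6, 4.05 to 24.4 and 5.92 to 58.8 FPKM. Ly6g, Mpo, Elane and Cxcr2 were under 1 FPKM in every library. Of 2 T, NK and B cell genes tested Jchain rose and Cd4 fell. The 10 listed summed to 3.35 to 4.52, 2.88 to 4.80, 3.61 to 4.88 and 4.01 to 4.49 FPKM. Of 7 endothelial markers 2 rose (sums 73.8 to 80.7, 60.5 to 76.7, 76.9 to 103 and 61.8 to 77.5), and of 7 stellate and fibroblast markers 1 rose (42.0 to 58.6, 36.6 to 46.2, 50.8 to 53.3 and 48.5 to 57.0). Of 3 cholangiocyte markers tested 1 rose, Sox9, and the 6 listed summed to 25.7 to 34.9, 17.6 to 34.3, 31.6 to 41.9 and 30.2 to 38.5 FPKM. Of 4 erythroid genes tested 1 fell, Alas2, and the 5 listed summed to 237 to 363, 258 to 685, 316 to 577 and 170.4 to 266 FPKM. Of 7 hepatocyte markers Hnf4a rose and 0 fell. The part of these genes and cell types in the members' differences was not tested.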

How the data were processed

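Per the labels' protocols, RNA was isolated by RNeasy columns and sequenced from SMARTer mRNA-seq libraries. The authors deposited FPKM per gene, 1 column per library, on mm10 according to the submitters' processing notes; aligner, counter and annotation: not given in the sources used here. IDs were matched to GENCODE release M21 (99.9% of 54532), and 4 unnamed empty columns were not used. Multiplied by exon length, 97.0 to 97.3% of the values under 500 fragments lay within 0.02 of a whole number, and these fragments gave the depth. Genes that reached 1 FPKM in 3 or more libraries were tested as log2(FPKM + 1), so fold changes are of FPKM + 1 and understate changes of low genes.

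A single limma model (3.58.1, R 4.3.3) of the 4 group means over the 12 libraries was used (two-sided, prior variance following the mean level), with Benjamini-Hochberg adjustment over all genes tested. It was run on simulated data with independent normal values and known changes in CD_DSS only. That simulation held no libraries that stand apart from their group, so it says nothing on their effect here. The comparisons were DSS on each diet, DSS averaged over both, HFD against CD without and with DSS, and the difference of the DSS effects; the first 3 share libraries, as do those between diets. Members and gene lists were chosen with earlier results of these data known. Values in every library are given for each member called in any comparison and for G6pc, Pck1, Gckr, Pklr, Gys2 and Insr. Other pathway genes are named where called, up to 4 per list, with 5 more whatever their test (1 further gene is not reported here); Socs3 and Got1 values in every library were added after they were seen. Alternatives were a pseudocount of 0.1, no filter, a mean of at least 5 FPKM, TPM, median-of-ratios scaling, library weights, a replicate block, the 2 groups alone and leaving out each library; limma's voom on recovered fragments (median-of-ratios library sizes) and the fit without 3 libraries were added after seeing the data. Transcripts were compared with BLAST.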

Additional observations from a re-analysis of the deposited data

How the results depend on the processing

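The count of members called depended on the setting. DSS on CD (3 called, 1 higher and 2 lower) gave 1 with no filter on low values (the rise of Ldha), 12 with library weights, 13 without the 3 libraries that stood apart, and 1 to 9 with a library left out (1 higher and 0 lower without CD 2, CD 3 or CD_DSS 2). DSS on HFD (5, all lower) gave 1 with no filter, 10 with a mean of at least 5 FPKM, 3 with TPM (1 higher and 2 lower), 18 with library weights, 2 with the 2 groups alone, 8 with voom, 14 without the 3 libraries, and 0 to 8 with a library left out (0 without HFD 2 or HFD_DSS 1). DSS over both diets (13) gave 8 with TPM, 20 with library weights and 9 to 17 with a library left out. HFD without DSS (0) gave 1 with library weights, and 0 with any library left out; HFD with DSS (0) gave 2 with library weights, 1 without the 3 libraries and 0 to 1 with a library left out. The difference of the DSS effects stayed at 0 in all settings run. Where the cause is not the number of libraries or genes tested, it was not tested. The calls that no alternative ended were G6pc, Khk, Eno1, Pklr, Ldha, Pygl and Tat over both diets and Ldha on CD. Insr ranged from -0.0294 (without CD 3) to 0.1502 on CD and from -0.0029 (without HFD 1) to 0.1963 on HFD. These were the only sign reversals among the results followed through all settings. Followed were all calls and, where not called, Pck1, Gckr, Pklr, Gys2 and Insr with DSS on each diet. Ldha (DSS on HFD, HFD without DSS) and Pygl (DSS on CD) were also followed. Other members can reverse: without the 3 libraries Slc37a4 differed by 0.08 on CD and 0.11 on HFD, against -0.08 and -0.02 with all libraries. Replicate numbers are shared between groups, but deviations of same-numbered libraries correlated at -0.36 to 0.26, so the numbers do not pair the libraries; with the replicate block, 2 members were called for DSS on HFD (G6pc, 0.0508, Eno1, 0.0559, and Pgam1, 0.0753, were not), 3 on CD, 10 lower and 1 higher over both diets (Tpi1, Gys2 and Phka2 were not called, 0.0502 to 0.0664) and 0 in the other comparisons. The 3 libraries a group limit what a single diet can show, and the intervals give that limit.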

Other observations

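Library CD_DSS 1 combined low Saa1 (9.14 FPKM) with the highest Pck1 (1168), Pdk4 (16.4), Ugp2 (101) and Gbe1 (24.3) of the 12 libraries, and with G6pc (147), Khk (182), Tat (745) and Socs3 (7.67) on the side of the other DSS libraries. Library HFD 1 had the highest Ldha of the untreated libraries (467) and the lowest Slc2a2 (24.2), Pklr (26.2), Gbe1 (13.3) and Pygl (59.4) of the 6 untreated libraries, with Saa1 at 579 and G6pc at 349.9 FPKM. These are single libraries, picked after their values were seen, and the labels record no difference in their handling.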
